A study of Xenopus tropicalis with 26 samples.

Results

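Of the 26550 gene models in a table of transcript levels of single Xenopus tropicalis embryos, 239 (0.900%) lay in a set range of levels and varied little over the 15 embryos sequenced. These stable gene models were chosen by 3 limits on the same values: a mean over all embryos from 20 to under 750 TPM (the share of an embryo's transcripts, scaled to a fixed total), a coefficient of variation (SD over mean, CV) of at most 5% among the 5 siblings of each clutch, and a highest clutch mean at most 15% above the lowest. Since these values chose the members, their levels, their CVs and their clutch means are given as a description, with no test. The gene models carry no gene symbols, and 0 of the 26550 identifiers matched the reference gene table, so no function is given for any of them and no sequence is shown.

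The embryos were whole, untreated siblings from in vitro fertilised eggs, taken at Nieuwkoop-Faber stage 10.25, 7 hours after fertilisation, with 5 embryos from each of clutches A, B and C. The labels give no strain or parents, and each clutch was 1 set of siblings, so parents, fertilisation and handling cannot be told apart. Polyadenylated RNA of each embryo was sequenced on its own. The study set out to compare how much expression varies for genes with and without H3K4me1, a histone mark of enhancers and promoter flanks. No source used here places the gene models on the genome, so the peaks of the 11 ChIP samples could not be joined to them.

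The early gastrula holds messenger RNA of 2 origins, that stored in the egg by the mother and that made by the embryo after its own genome is switched on at the midblastula transition. The stored part reflects the mother and the egg, and the newly made part also reflects the embryo's own stage and patterning. A transcript that is even among siblings and among clutches is of practical use as a reference against which others are measured. Single whole embryos carry all germ layers at once, so fewer cells of a type and less RNA per cell cannot be told apart in these values.

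Depth is unknown, because TPM keeps no record of read number. No pair of embryos had identical values. Embryo 1 of clutch A stood apart from its siblings: it lay within 10% of their mean in 55.9% of the models of 20 to under 750 TPM, against 65.6% to 78.4% for each sibling read the same way. For the main clutch A results, values without it are given beside those with it. The most abundant gene model, Xetrov90027395m.g, took 1.997% to 5.67% of all TPM and varied between siblings by a CV of 19.1% in clutch A, 31.1% in clutch B and 40.2% in clutch C. The values of each embryo sum to the same total, so a higher share of this model leaves less for all others.

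The 3 limits removed models unequally. Of the 26550 gene models, 6793 (25.6%) had a mean in the range. Among these, 1376 (20.3%) met the variation limit in clutch A, 2062 (30.4%) in clutch B and 1784 (26.3%) in clutch C, and 371 (5.46%) met it in every clutch. Without embryo 1 of clutch A, 2109 (31.0%) met it in clutch A. Leaving out embryo 1 of each clutch in turn raised all 3 shares. With the level range set on the other 2 clutches, they were 30.9%, 39.1% and 33.3% in clutches A, B and C. Clutch A was again the lowest. The limit on clutch means was met by 2601 models (38.3%), and both limits together by the 239 members (3.52%). A further 132 models met the variation limit in every clutch but had clutch means more than 15% apart, up to 2.33-fold. In these, differences between clutches took up a median of 89.8% of the variance. The reverse case, clutch means within the limit but a CV above 5% in every clutch, held for 973 models, with a median of 4.10% of the variance between clutches. The limits chose both groups, so these shares of variance follow from the choice and are a description. Models that were even among siblings but not among clutches, and the reverse, were both present.

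**Figure D1:**
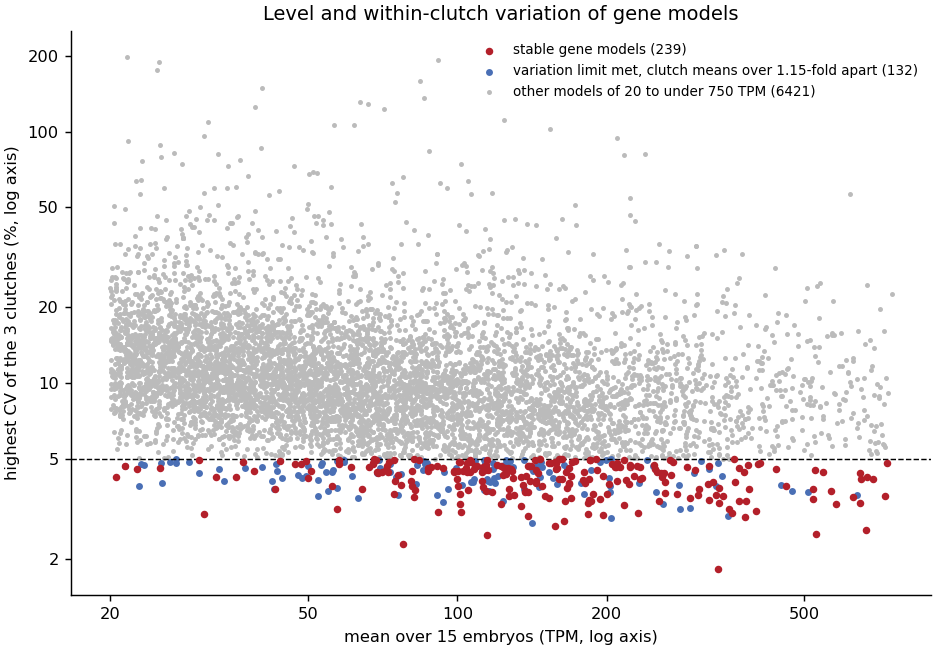
Mean over 15 embryos (TPM, log axis) against the highest CV of the 3 clutches (%, log axis) for each gene model of 20 to under 750 TPM, except 1 that is listed at 0 throughout clutch A. The 239 stable models and the 132 models that met the variation limit but not the clutch mean limit lie under the dashed line at 5%. Their median levels were 150.4 and 112.9 TPM, against 63.2 TPM for the range.

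Stable models were found at all levels of the range, but seldom at low ones. They made up 15 of 2693 models of 20 to 50 TPM (0.557%, exact 95% binomial interval 0.312 to 0.917), 42 of 1892 of 50 to 100 TPM (2.22%, 1.60 to 2.99), 103 of 1351 of 100 to 200 TPM (7.62%, 6.27 to 9.17) and 79 of 857 of 200 to 750 TPM (9.22%, 7.37 to 11.4). These intervals cover counting error only, as all models share the same 15 embryos. The rule used these values, so the shares by level are a description and no test. The median level was 150.4 TPM for the members and 63.2 TPM for all models in the range. Variation fell with level in the range as a whole, where the median CV in clutch A was 9.21% at 20 to 50 TPM and 6.67% at 200 to 750 TPM. The part of counting error in the variation of low models was not tested.

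The member that varied least among siblings was Xetrov90004895m.g. It had 343, 335, 331, 341 and 345 TPM in clutch A, 320, 325, 319, 332 and 330 TPM in clutch B, and 334, 338, 346, 350 and 343 TPM in clutch C. Clutch B was the low one: its 5 embryos overlapped those of clutch A between 331 and 332 TPM and lay below all those of clutch C. The CVs were 1.75%, 1.78% and 1.82% in clutches A, B and C, and the lowest and highest embryo were 1.097-fold apart.

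Xetrov90005960m.g came next. It had 77.7, 76.8, 74.7, 76.9 and 76.0 TPM in clutch A, 77.3, 78.6, 75.0, 78.6 and 79.5 TPM in clutch B, and 79.4, 77.7, 77.9, 81.9 and 77.6 TPM in clutch C. All clutches overlapped, with means of 76.4 ± 1.13, 77.8 ± 1.76 and 78.9 ± 1.81 TPM in clutches A, B and C (SD, n = 5 each). Xetrov90011141m.g had the smallest ratio of highest to lowest embryo. It had 118, 112, 114, 111 and 115 TPM in clutch A, 115, 115, 111, 117 and 112 TPM in clutch B, and 114, 118, 115, 116 and 114 TPM in clutch C. Its highest and lowest embryos, both in clutch A, were 1.07-fold apart, and the range of clutch A enclosed those of the other clutches.

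Clutch means agreed most closely in Xetrov90012024m.g, at 159 ± 5.14 TPM in clutch A, 159 ± 7.26 TPM in clutch B and 159 ± 5.20 TPM in clutch C (SD, n = 5 each). The highest clutch mean was 1.004 times the lowest, while single embryos ran from 148 to 167 TPM, both ends in clutch B. Here the siblings differed by more than the clutches did. The ends of the level range were Xetrov90021749m.g at 21.0 ± 0.891 TPM in clutch A, 20.5 ± 0.670 TPM in clutch B and 20.02 ± 0.795 TPM in clutch C, and Xetrov90000765m.g at 721 ± 22.1 TPM in clutch A, 750.2 ± 17.8 TPM in clutch B and 735 ± 35.3 TPM in clutch C (SD, n = 5 each). In both, all 3 clutches overlapped.

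The member with the largest ratio of highest to lowest embryo was Xetrov90021341m.g. It had 119, 117, 116, 110.5 and 116 TPM in clutch A, 106, 109.8, 100.5, 102 and 105 TPM in clutch B, and 115, 121, 129, 118 and 117 TPM in clutch C. Clutch B lay below all other embryos, the other clutches overlapped, and the highest embryo was 1.29 times the lowest. Its means were 116 ± 3.06 TPM in clutch A, 105 ± 3.70 TPM in clutch B and 120.2 ± 5.43 TPM in clutch C (SD, n = 5 each).

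**Figure D2:**
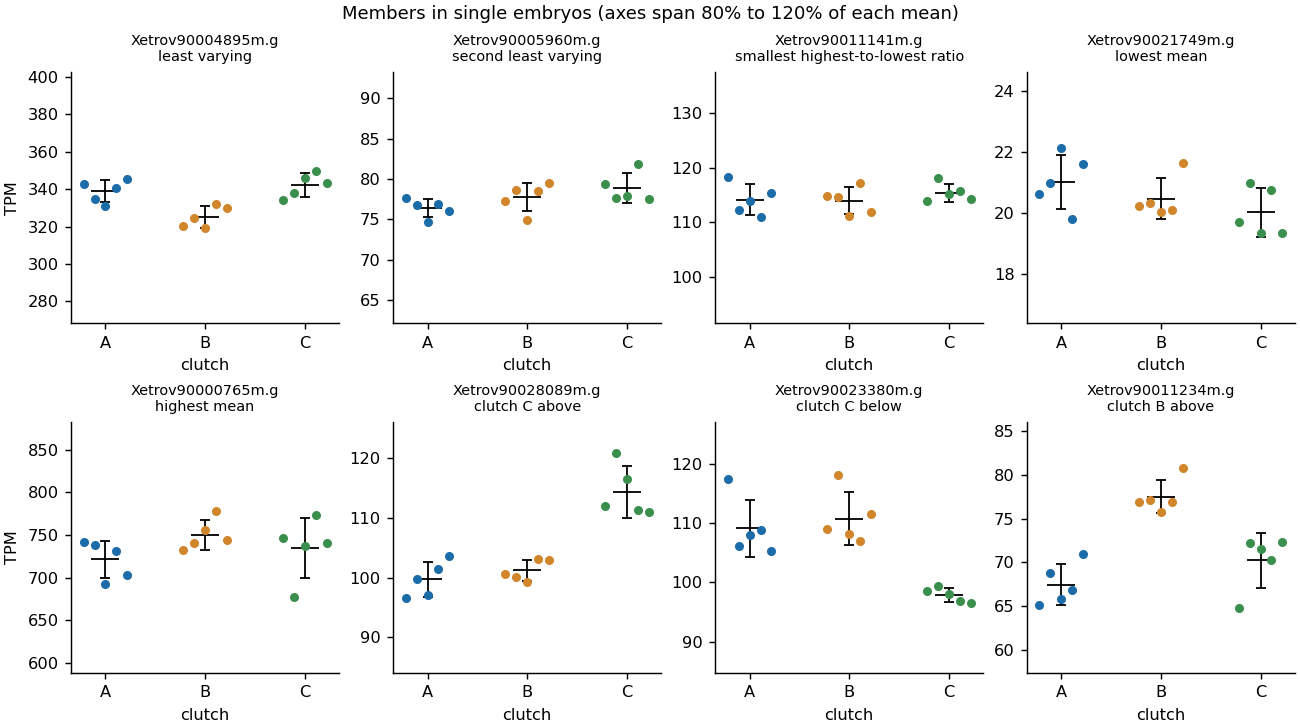
TPM of 8 stable models in the 15 single embryos, by clutch; each vertical axis spans 80% to 120% of that model's mean. Points are embryos, bars the mean and SD of 5 siblings; the clutches overlap in the top row except clutches B and C in the first panel, whereas in the last 3 panels 1 clutch is clear of the other 10 embryos.

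Over all 239 members, the highest and the lowest of the 15 embryos were 1.18-fold apart in the median, with a range from 1.07 to 1.29. The highest embryo was at most 15% above the lowest in 74 members, at most 20% in 160 and at most 25% in 222. Among all 6793 models of the range, these counts were 91, 344 and 800, and the median was 1.47-fold. In 8 models of the range it was at most 10%, and all 8 were members. A spread that small leaves little room to miss the limits, so nothing is read from this.

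The median CV of the members was 3.50% in clutch A, 3.21% in clutch B and 3.66% in clutch C, against 7.94%, 6.71% and 6.94% for all models in the range. Without embryo 1, the median in clutch A was 3.12% for the members and 6.69% for the range. Over all 15 embryos it was 4.69% for the members and 11.3% for the range. Clutch B was the least variable clutch in 109 members (45.6%), as it was in 40.5% of all models. Clutch A was the most variable in 92 members (38.5%), against 43.2% of all models. Without its embryo 1, clutch A was the most variable in 65 members (27.2%) and clutch C in 105 (43.9%), against 32.8% and 35.9% of the range. Clutches B and C kept all 5 embryos in that reading. Most members lay close to the variation limit in at least 1 clutch: the median of their highest CV was 4.36%, and the lower quartile was 3.75%.

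At the limits, the choice turned on small differences. Xetrov90021584m.g, with a highest CV of 4.999%, and Xetrov90019345m.g, with 4.997%, were the last members inside the variation limit, and Xetrov90007726m.g (5.004%) and Xetrov90005754m.g (5.008%) the first models outside it. For clutch means, Xetrov90021341m.g was the last inside, at 1.149-fold, and Xetrov90024784m.g the first outside, at 1.1501-fold. At the bounds of the level range there was more room. Below it, Xetrov90013154m.g, with a mean of 10.6 TPM, was the only model in the table that met both other limits, against 20.5 TPM for the lowest member. Above it, 18 of 125 models met them, the first being Xetrov90010690m.g at 781 TPM, against 735 TPM for the highest member.

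Whether evenness in 2 clutches carries over to another set of siblings can be read in the clutch that took no part in the choice. The limits were therefore applied to 2 clutches, and the CV was read in the remaining one. Of 601 models chosen on clutches B and C, 275 had a CV of at most 5% in clutch A (45.8%, exact 95% interval 41.7 to 49.8), against 20.2% of all models in the level range. Of 447 chosen on clutches A and C, 297 did so in clutch B (66.4%, 61.9 to 70.8), against 30.2% of all. Of 638 chosen on clutches A and B, 323 did so in clutch C (50.6%, 46.7 to 54.6), against 26.2% of all. The interval of the chosen models lay above that of the range in each clutch, and many chosen models still exceeded the limit there. These intervals cover counting error only, as all models of a clutch share the same 5 siblings. The range includes the chosen models and also holds models of lower level.

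The median CV in the unused clutch was 5.20% for the chosen models and 7.96% for the range in clutch A, 4.03% and 6.73% in clutch B, and 4.95% and 6.96% in clutch C. A CV above 10% was reached by 7.82% of the chosen models in clutch A, against 33.0% of the range. In clutch B it was 2.01% of the chosen models against 23.8% of the range, and in clutch C 6.43% against 25.2%. The highest CV of a chosen model in an unused clutch was 22.4%, in clutch A. The clutch A values rested in part on its embryo 1. Without it, 62.7% of the chosen models and 30.9% of the range were within the limit, the median CV was 4.11% against 6.70%, and 4.33% of the chosen models exceeded 10%, against 25.7% of the range.

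Chosen models lie at higher levels, where variation was lower, so the shares were also read within 4 classes of level. The chosen models had the higher share in all 12 combinations of clutch and class. In clutch A, for example, 20 of 78 chosen models of 20 to 50 TPM met the limit (25.6%, 16.4 to 36.8), against 13.4% (12.2 to 14.8) of all models of that level. At 100 to 200 TPM it was 116 of 205 (56.6%, 49.5 to 63.5), against 27.7% (25.3 to 30.1). Without embryo 1 of clutch A, these shares were 37.2% against 21.1% at 20 to 50 TPM, and 77.1% against 40.9% at 100 to 200 TPM. In clutch B, the share at 100 to 200 TPM was 77.8% (70.6 to 83.9) among chosen models and 41.8% (39.1 to 44.5) among all. That class had the highest chosen share in each clutch. At 200 to 750 TPM the chosen share was 51.2% in clutch A, 72.1% in clutch B and 56.6% in clutch C. Among all models of that level it was 29.6%, 45.3% and 38.2%. In clutch C at 20 to 50 TPM, it was 26.5% (18.1 to 36.4) against 16.5% (15.1 to 17.9). The share also moved with level: in clutch B, 19.1% of all models met the limit at 20 to 50 TPM and 45.3% at 200 to 750 TPM.

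**Figure D3:**
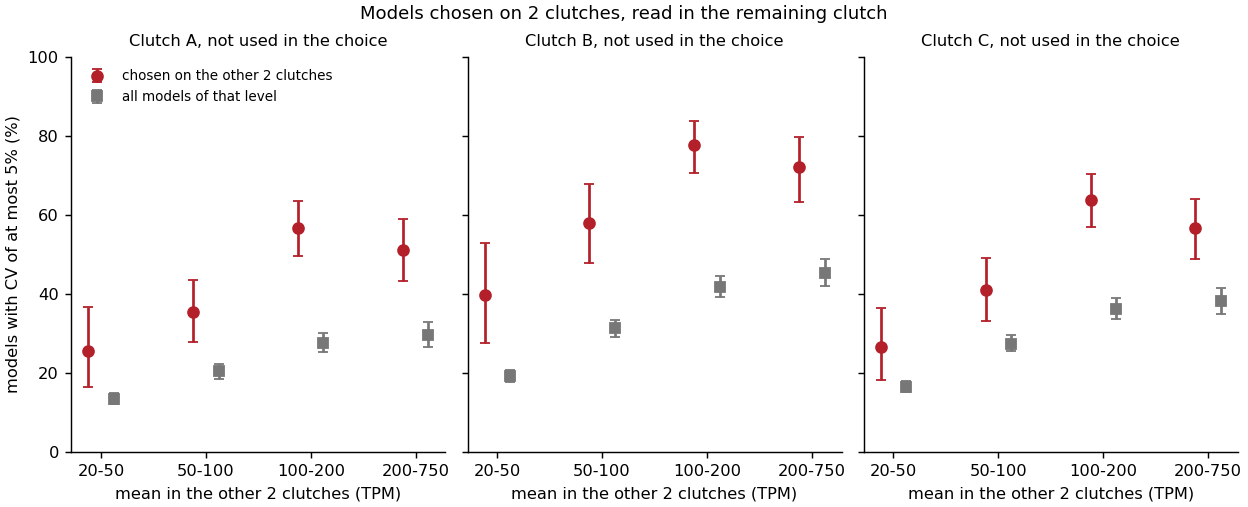
Share of gene models with a CV of at most 5% (%) in a clutch that was not used to choose them, by their mean in the other 2 clutches (TPM); circles are models chosen on those clutches, squares all models of that level (the chosen ones among them), and bars exact 95% binomial intervals. Circles lie above squares in all 12 combinations, and the intervals are clear of each other in each. They cover counting error only, as all models of a panel share the same siblings.

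The clutch means were read the same way. Of the models chosen on clutches B and C, 81.7% (78.4 to 84.7) still had all 3 clutch means within 15% when clutch A was added, against 71.6% of the 3633 models whose means in clutches B and C alone met that limit, whatever their variation. When clutch B was the added one, it was 77.0% (72.8 to 80.8) against 62.5% of 4165 models. When it was clutch C, it was 67.4% (63.6 to 71.0) against 54.4% of 4779 models. Clutch C was the one whose addition removed the largest share in either case. The chosen models lie at higher levels, where clutch means differ less. This share was then split by the 4 classes of level, a split chosen after seeing the data. It was higher among the chosen models in 12 of 12 combinations of clutch and class. The combinations share the same embryos, so they are not separate readings. The intervals, which cover counting error only, were clear of each other in 1 of them.

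The same reading was made with single embryos, each compared with the mean of its 4 siblings after a choice on the other 14 embryos. That choice gave 220 to 325 models, with a median of 243. The left-out embryo lay within 10% of its siblings in 75.7% to 100% of the chosen models, with a median over the embryos of 93.0%, against 55.9% to 85.4% and a median of 70.1% for the range. The share was higher among the chosen models in 15 of 15 embryos. The choices share most of their embryos, so they are not separate readings. The 4 siblings that gave the mean also took part in the choice. The range holds more models of lower level, where variation was higher, and this share was not split by level. The median distance from the siblings was 3.44% for the chosen models and 6.24% for the range. Embryo 1 of clutch A was the lowest in both, at 75.7% of the chosen models and 55.9% of the range. Embryo 2 of clutch B was the highest in both, with 224 of 224 chosen models and 85.4% of the range.

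**Figure D4:**
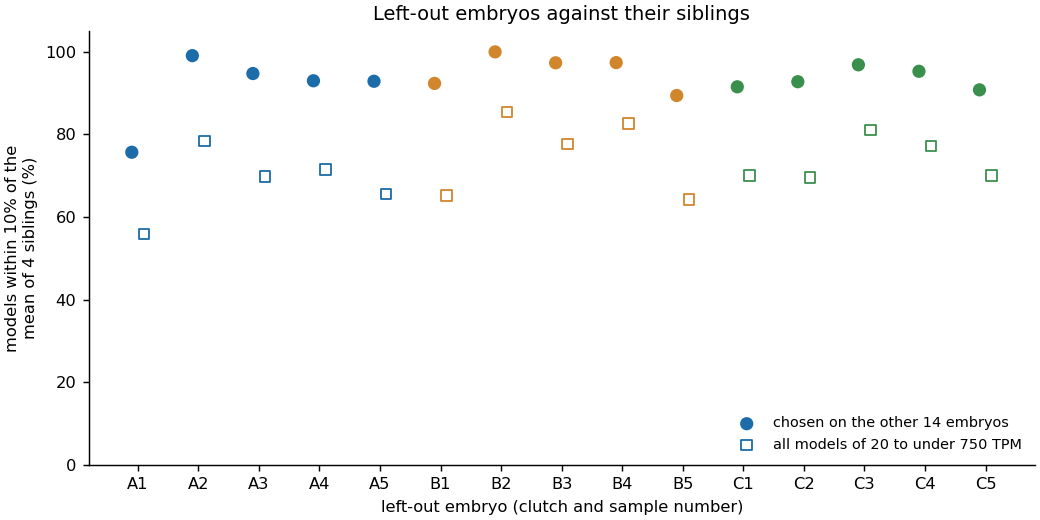
Share of gene models (%) whose value in a left-out embryo lay within 10% of the mean of its 4 siblings; filled circles are models chosen on the other 14 embryos, open squares all models of 20 to under 750 TPM. The circle is above the square in all 15 embryos, and embryo 1 of clutch A is lowest in both.

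Embryos shifted the members by small amounts, and the range as a whole shifted too. The summed level of the 239 members was 46592 ± 307 TPM in clutch A, 46849 ± 412 TPM in clutch B and 46154 ± 655 TPM in clutch C (SD, n = 5 each), or 4.54% to 4.73% of all TPM over the 15 embryos. The median ratio of the members to their own means ran from 0.974 in embryo 1 of clutch C to 1.015 in embryo 1 of clutch A. For the range it ran from 0.967 in embryo 5 of clutch C to 1.032 in embryo 5 of clutch B. The embryo that was lowest of its siblings in most members was embryo 1 of clutch B, in 93 members (38.9%), against 38.5% of the range. Embryos 1 and 2 of clutch C followed, in 82 (34.3%) and 74 (31.0%), against 23.7% and 25.2% of the range. The one that was highest in most was embryo 5 of clutch B, in 79 (33.1%), against 35.7% of the range. Embryo 1 of clutch A followed, in 75 (31.4%, range 26.7%), and was also the lowest in 54 (22.6%, range 27.8%).

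Embryos 1 and 2 of clutch C, at 0.974 and 0.977, also had the highest shares of the most abundant model, 4.88% and 5.67% of all TPM. In clutch B, embryo 1 had the lowest member ratio of its clutch, 0.991, and the highest share of that model, 4.12%, against 2.15% to 2.42% in its siblings. In clutch A, embryo 4 had the highest share, 3.95%, with a member ratio of 1.004, above the 0.998 of embryo 5, which had 3.22%. Embryo 4 of clutch C had the lowest share of all, 1.997%, with a member ratio of 1.0002 and a ratio of 0.982 for the range. The lowest ratio for the range, 0.967, was in embryo 5 of clutch C, with a share of 4.15%. Whether the share of this model and the shift of the members are linked was not tested. Dividing each embryo by its member median lowered the median CV of the members only in clutches B and C, to 3.04% and 3.32%, and left 3.51% in clutch A.

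Once the most abundant model was taken out and the rest rescaled to the same total, 267 models met the limits, of which 203 were members. This alternative was chosen after seeing the data. The share within the limit in the unused clutch was then 45.3% in clutch A, 70.5% in clutch B and 54.4% in clutch C. For all models in the range it was 20.1%, 31.5% and 26.8%.

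**Figure D5:**
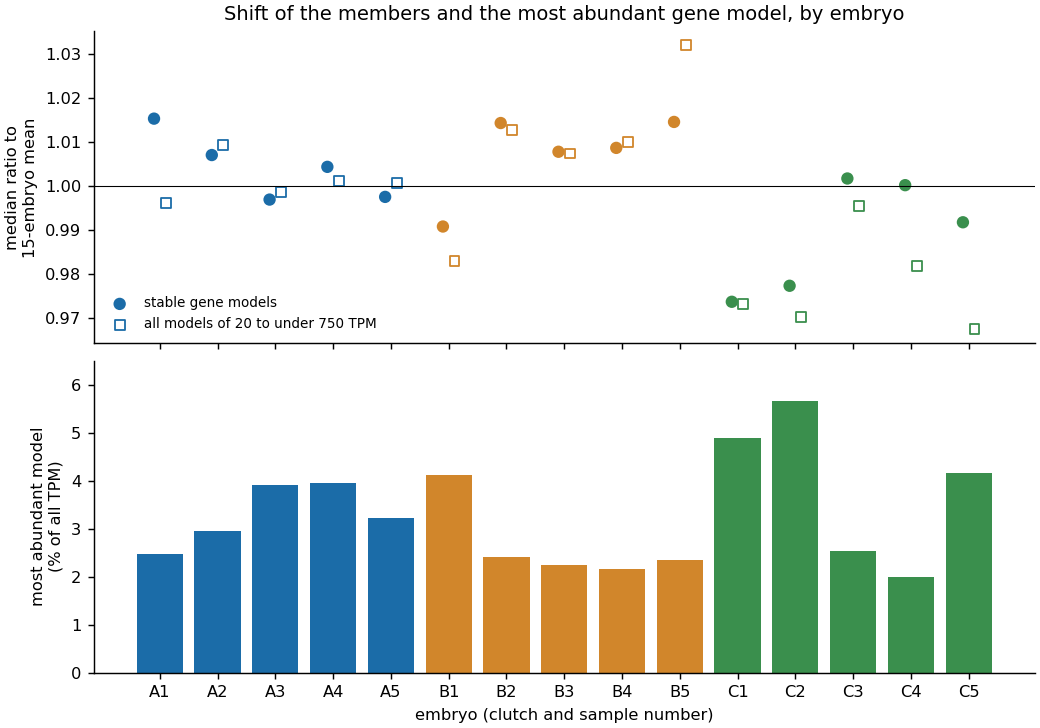
Top, median ratio of the 239 stable models (filled circles) and of all models of 20 to under 750 TPM (open squares) to their means over 15 embryos, by embryo; bottom, share of the most abundant gene model (% of all TPM). Embryos 1 and 2 of clutch C have the lowest member ratios (0.974 and 0.977) and the tallest bars (4.88% and 5.67%).

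The deviations of pairs of members had a low median correlation, with a wide spread. Within clutches, the deviations of 2 members from their clutch means had a median Pearson correlation of 0.07 over the 15 embryos (28441 pairs of members), with the central 90% of pairs from -0.46 to 0.57. For all pairs in the range the median was 0.02. These correlations share the libraries and the total of each embryo and are given as a description.

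Members still held differences among clutches. A pair of embryos of different clutches differed in a member by 1.05-fold in the median (75 pairs of embryos, 1.04 to 1.08), and a pair of siblings by 1.04-fold (30 pairs, 1.02 to 1.05). For all models in the range, these medians were 1.14-fold and 1.08-fold. The folds of the range were taken on TPM + 1, which makes them slightly smaller, and those of the members on TPM. Differences between clutches took up 50.2% of a member's variance in the median, and 53.3% for the range. The lower variation of the members thus held among siblings and among clutches alike, as the rule required.

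limma's moderated F-test on log2(TPM + 1), with Benjamini-Hochberg adjustment, called 106 of the 239 members (44.4%) different among clutches at an adjusted p under 0.05, against 57.9% of all 12551 models tested, the background, and 61% of the 6793 in the level range. As the rule used clutch means and spreads, nothing is read from this count. The called members had a median ratio of highest to lowest clutch mean of 1.11, at least 1.07 in each, and the other 133 a median of 1.05. In pairwise contrasts, 43 members (18%) differed between clutches A and B (background 25.6%). Between A and C it was 58 (24.3%, background 41.6%), and between B and C 83 (34.7%, background 48.1%). In none of the contrasts 118 members (49.4%) were called, in 1 contrast 58 (24.3%), in 2 contrasts 63 (26.4%) and in all 3 contrasts 0. Of all models tested, 37.4% were called in none, 17.4% in 1, 37.8% in 2 and 7.38% in all 3. The limit on clutch means caps a member's difference, whose largest size in any contrast was 0.20 on the log2 scale, and the variation limit keeps its standard error low, with a median of 0.04.

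The direction of these calls, counted among the 239 members, depended on the scaling. Between clutches A and C, 40 called members were higher in A and 18 lower (background 23.4% and 18.2%), but 24 were higher and 36 lower with values scaled by median ratios (background then 20.3% and 20.8%). Between clutches B and C, 59 were higher in B and 24 lower (background 28.2% and 19.8%), but 30 and 52 after that scaling (background then 23.6% and 24.1%). Between clutches A and B it was 20 higher in A and 23 lower (background 11.4% and 14.2%), and 28 and 17 after scaling (background then 12.9% and 12.6%). Under quantile normalization, B minus C stayed at 49 higher and 35 lower (background 3185 and 2803 of 12551 models). A minus C was then 28 and 27 (2699 and 2461), and A minus B 20 and 26 (1559 and 1672). Without the most abundant model, B minus C was 51 and 35 (3316 and 2700 of 12607 models). A minus C was then 35 and 24 (2840 and 2359), and A minus B 23 and 21 (1516 and 1674). As the scalings differ, no direction is given for the members as a set.

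In 51 members (21.3%), all embryos of 1 clutch lay clear of the other 10, against 28.5% of all models tested. Clutch C lay below all others in 17 members (7.11%, background 9.62%) and above them in 5 (2.09%, background 7.35%). Clutch B lay above in 13 (5.44%, background 5.48%) and below in 5 (2.09%, background 3.43%). Clutch A lay above in 6 (2.51%, background 2.96%) and below in 6 (2.51%, background 3.12%). In 1 member, 1 clutch lay above and another below the rest. These counts and the gaps of named members were read on the deposited TPM only, not under the other scalings. Median-ratio factors ran from 0.971 in embryo 5 of clutch C to 1.049 in embryo 5 of clutch B, so no direction is read here either. The clearest of the 51 differed by little. Xetrov90028089m.g had 96.6, 99.8, 97.2, 101 and 104 TPM in clutch A and 101, 100.1, 99.3, 103 and 103 TPM in clutch B, and 112, 121, 117, 111 and 111 TPM in clutch C. Its lowest embryo of clutch C was 1.07 times the highest of the others.

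On the low side, Xetrov90023380m.g had 117, 106, 108, 109 and 105 TPM in clutch A, 109, 118, 108, 107 and 112 TPM in clutch B, and 98.6, 99.3, 98.1, 96.8 and 96.6 TPM in clutch C. Clutch C was not only lower but also the most even, with a CV of 1.19%. In Xetrov90011234m.g, clutch B was the high one, with means of 67.5 ± 2.38 TPM in clutch A, 77.5 ± 1.90 TPM in clutch B and 70.2 ± 3.17 TPM in clutch C (SD, n = 5 each). In Xetrov90004540m.g, clutch A was low, at 360.2 ± 8.44 TPM, against 399.6 ± 3.63 TPM in clutch B and 403 ± 15.2 TPM in clutch C (SD, n = 5 each). Clutch B varied by a CV of only 0.908% in this model. Xetrov90025121m.g, named for the largest moderated F of the members, had 170 ± 4.62 TPM in clutch A, 194 ± 2.84 TPM in clutch B and 193 ± 6.59 TPM in clutch C (SD, n = 5 each). In each of these members the clutch means lay less than 15% apart.

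Membership itself moved with single embryos. Leaving out 1 embryo kept 202 to 226 of the 239 members, and 112 (46.9%) met the limits in every set of 14 embryos. Without embryo 1 of clutch A, 325 models met the limits, the most of any set of 14 embryos. Of the members, 190 also met the limits after median-ratio scaling and 202 after quantile normalization, and 162 met them under both and without the most abundant model. The 101 members (42.3%) that met all of these scalings and all sets of 14 embryos include a choice made on the same values, so they are a description and no firmer set.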

How the data were processed

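Transcript levels were deposited by the authors as TPM for 26550 gene models in 15 columns, 1 per embryo, matched to samples by their titles; all columns were used and the reported values were not rescaled. Per the labels' protocols, cDNA was made by Smart-seq2 and tagmented, and RSEM 1.2.12 and Bowtie2 2.2.7 are named per the submitters' processing notes. No source used here names the gene annotation. The peak lists were not used.

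CVs use the SD with n - 1. The members, limits, level classes and named models were chosen with earlier results of these data known. Named were the least variable members, the ends of the level range, those next to each limit, those with the smallest and largest ratio of highest to lowest embryo, the largest and smallest moderated F, and 2 members with a clutch clear on the high and 2 on the low side. Replicates are siblings, so p-values set differences of clutch means against the spread between siblings. As each label is 1 clutch, they do not cover how clutches in general vary.

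For 12551 models with a mean of at least 1 TPM, log2(TPM + 1) was modelled by clutch with limma 3.58.1 (R 4.3.3; trended, robust eBayes), with contrasts A minus B, A minus C and B minus C. Differences on this scale understate the change of low models. Median-ratio factors used models above 0 in all embryos with a mean of at least 1 TPM. Alternatives were other limits, scalings, pseudocounts, filters, a block on sample number and leaving out each embryo. Simulated data with planted values and independent errors served to check the code only, so they say nothing about these embryos. Python 3.11.15, numpy 2.4.6, pandas 2.3.3, scipy 1.17.1 and matplotlib 3.10.9 were used.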

Additional observations from a re-analysis of the deposited data

Results flagged for a closer look

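Among 69 sets of 5 siblings examined, 8 held an embryo far from the other 4, by a gap over 0.71 of the whole range (Dixon's criterion). Chance flags about 1 in 20 sets, and both ends of each set were looked at.

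For values over many models, embryo 1 of clutch A lay within 10% of its siblings in 75.7% of the models chosen without it, the lowest of its clutch. Embryo 1 of clutch B had the lowest median ratio of the members in its clutch, 0.991, and the highest level of the most abundant model, 41208 TPM, against 21506 to 24175 TPM in its siblings.

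For single models, embryo 1 of clutch A was highest in Xetrov90023380m.g, at 117 TPM. Embryo 5 of clutch B was highest in Xetrov90021749m.g, at 21.6 TPM, and in Xetrov90011234m.g, at 80.8 TPM, and lowest in Xetrov90021584m.g, at 367 TPM. Embryo 1 of clutch C was lowest in Xetrov90011234m.g, at 64.8 TPM.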

How the results depend on the processing

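The number of stable models was 84 with a variation limit of 4% and 510 with 6%; under the other limits, scalings, the SD of the natural log and without 1 embryo (220 to 325) it stayed within 1.5 times 239. In the unused clutch, the chosen models within the limit made up 35.9%, 59.5% and 40.8% in clutches A, B and C with a limit of 4%, against 10.8%, 18.4% and 14.7% of the range, and 56.8%, 72.8% and 63.9% with 6%, against 30.8%, 42.0% and 39.0%. With quantile normalization the share was 71.1% in clutch B and 57.7% in clutch C, against 31.6% and 27.9% of the range. Without 1 embryo it ran from 41.9% to 62.7% in clutch A, 61.7% to 74.0% in clutch B and 47.96% to 59.2% in clutch C. The share of the range moved with it. At those lowest and highest values, it was 20.0% and 30.9% in clutch A. In clutch B it was 30.3% and 38.8%, and in clutch C 26.0% and 33.3%. Within 5% of its siblings, the left-out embryo lay in 66.9% of the chosen models in the median, against 41.5% of the range. Tested over models of at least 20 TPM, where fewer models enter, limma called 4248 in the F-test, 1985 for A minus B, 2958 for A minus C and 3517 for B minus C. Among members, the count called stayed within 1.5 times under every alternative, and without 1 embryo it was 87 to 104 in the F-test, 29 to 43 for A minus B, 46 to 57 for A minus C and 70 to 87 for B minus C; over all models it was 6771 to 7213, 2718 to 3231, 4696 to 5218 and 5496 to 6200. The labels do not pair same-numbered embryos. Their deviations correlated over 0.1 in 5 of 15 pairs, at most 0.30, and the same number was the best match in 3. This reading cannot show that same numbers share nothing, and the main fit did not use them as a pairing. With the sample number as a block, the F-test called 7055 models and 87 members. Unknown depth leaves the part of counting error in each CV unknown.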
